A study of Mus musculus with 6 samples.

Results

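The FOS and JUN genes encode the core subunits of AP-1, and the 7 of them in mouse (Fos, Fosb, Fosl1, Fosl2, Jun, Junb and Jund) were taken by symbol from the 24411 rows of the count table. Their RNA was measured by RNA sequencing of primary brain microglia, the resident macrophages of the brain, from 8-week-old C57BL/6J mice. The Mir137 knockout (gKO) and the wild type (gWT) each had 3 libraries, and the comparison asks how microglial transcription differs when miR-137 is lost. The design text gives 4 adult mice and 3 replicates per genotype without tying mice to libraries. The sources used here do not explain the letter g or give the build of the allele, the purification method or the animals behind each library. The p-values therefore measure only the spread between libraries, which may be technical.

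AP-1 is a dimer of basic leucine zipper proteins. FOS proteins cannot pair with each other and bind DNA with a JUN partner, whereas JUN proteins can also pair among themselves. Fos, Fosb, Jun and Junb are immediate-early genes, which many stimuli switch on within minutes without new protein synthesis. In microglia, AP-1 acts with lineage factors at enhancers of activation genes, and the same genes respond to the isolation of cells from tissue.

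The libraries held 14603884 to 17652976 counts, and microglial markers stood at 44552 to 50278 CPM (counts-per-million units, scaled by TMM, a method that matches library composition) in sum over 14 genes. Mir137 itself had 0 counts in every library, which checks no label. Library 3 of the gKO group stood apart from the rest, at 91.5 on the first principal component against -37.7 to -3.45 for the others. Its deviation from the mean of all libraries fell with transcript length across genes at a Spearman rho of -0.50, and the other libraries had -0.04 to 0.30. These are correlations across genes, which are no replicates. Counts of called genes that change without it are given both ways.

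The sequences of the microRNA and of 4 member promoters are shown because miR-137 is what the knockout lacks and because CREB, ATF and AP-1 proteins are known to act near the starts of these genes. The mature miR-137-3p (chromosome 3, 118433901 to 118433923, plus strand), from the RefSeq table for GRCm38.p6, is printed 5′ to 3′ with its seed (bases 2 to 8) in capitals.

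miR-137-3p: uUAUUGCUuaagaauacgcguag

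The complement of this seed, AGCAATA, was in none of the 7 members' 3′ UTRs, which are 485 bases (Junb) to 4653 bases (Fosl2) long after the stop codon of the longest coding transcript in GENCODE M21. Of all genes with such a UTR, 9.61% held it. The search covers these letters in these windows only.

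The promoter windows run from 250 bases before to 50 bases after the RefSeq start on GRCm38.p6. Capitals mark TGACG, the core of the cAMP response element (CRE) bound by CREB and ATF proteins, TGACATCA, the CRE-like AP-1 site, and TATAAA, all searched on both strands.

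Fos, chr12:85473640-85473939, plus strand: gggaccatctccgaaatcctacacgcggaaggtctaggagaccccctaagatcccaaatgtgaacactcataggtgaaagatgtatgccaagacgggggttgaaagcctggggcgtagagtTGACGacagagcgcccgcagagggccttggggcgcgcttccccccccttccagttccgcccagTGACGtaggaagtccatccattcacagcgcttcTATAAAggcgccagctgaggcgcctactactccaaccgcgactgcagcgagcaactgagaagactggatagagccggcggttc

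Fosb, chr7:19309996-19310295, minus strand: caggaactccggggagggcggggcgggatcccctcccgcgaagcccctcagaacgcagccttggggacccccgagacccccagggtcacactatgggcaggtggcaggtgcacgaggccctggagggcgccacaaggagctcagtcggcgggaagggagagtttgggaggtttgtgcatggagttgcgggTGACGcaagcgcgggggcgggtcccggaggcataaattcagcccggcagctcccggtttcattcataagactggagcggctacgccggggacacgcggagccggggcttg

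Jun, chr4:95052173-95052472, minus strand: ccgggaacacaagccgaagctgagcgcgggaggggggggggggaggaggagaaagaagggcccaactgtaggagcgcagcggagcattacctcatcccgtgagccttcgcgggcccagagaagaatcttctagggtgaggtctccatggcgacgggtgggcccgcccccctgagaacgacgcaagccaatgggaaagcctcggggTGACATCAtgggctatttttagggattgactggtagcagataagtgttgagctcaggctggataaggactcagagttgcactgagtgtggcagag

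Junb, chr8:84978699-84978998, minus strand: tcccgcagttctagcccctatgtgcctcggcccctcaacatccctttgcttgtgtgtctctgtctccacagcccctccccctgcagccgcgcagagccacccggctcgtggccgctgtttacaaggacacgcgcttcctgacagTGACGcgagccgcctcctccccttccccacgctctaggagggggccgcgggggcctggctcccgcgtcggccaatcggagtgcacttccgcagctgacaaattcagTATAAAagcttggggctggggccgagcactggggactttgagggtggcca

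TGACG began at bases -129 and -66 in Fos, counted from the start as base 1 with no base 0, at -60 in Fosb and at -106 in Junb, and 20.8% of the 32851 promoters of the table held it. TGACATCA began at base -45 in Jun (3.62% of promoters). TATAAA began at base -33 in Fos and, past the RefSeq start, at base 1 in Junb (13.6%). The RefSeq start of Junb lay 30 bases before the start of the GENCODE gene, so this TATAAA precedes the GENCODE start. For Fosb the 2 starts lay 6 bases apart. The full CRE TGACGTCA (which contains TGACG; 1.79%), the AP-1 site TGANTCA (7.81%) and the CArG box of serum response factor (1.63%) had no match in the 6 windows of the table (Fosl1 has no entry). A match is a string of letters and not evidence of binding. A missing match covers only the searched windows, which begin 250 bases before the RefSeq start, and not sites further away. The windows of Jund and Fosl2 are not shown, because their RefSeq starts lay 1210 and 671 bases from the start of the GENCODE gene.

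Of the 7 members, 6 passed the filter on low counts, and edgeR called 3 of them higher and 0 lower in gKO: Fosb, Fos and Jund. Over the whole table, 0.395% of the 13403 tested genes were called higher (adjusted p under 0.05 by the Benjamini-Hochberg method over all tested genes). All 6 tested members had a positive log2 fold change, with a median of 0.63, against 0.01 over all genes tested. The 3 gKO libraries lay above the 3 gWT libraries in 4 members, which was so in 10.0% of all tested genes. These calls depended on the libraries used: without gKO replicate 3, Jun and Junb were called as well (5 of 6, where 3.99% of 13814 tested genes were called higher), and without any 1 of the other 5 libraries 0 members were called. Over all genes tested, only 4 were called higher without gKO replicate 1, 4 without gKO replicate 2 and 0 without any gWT library.

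**Figure D1:**
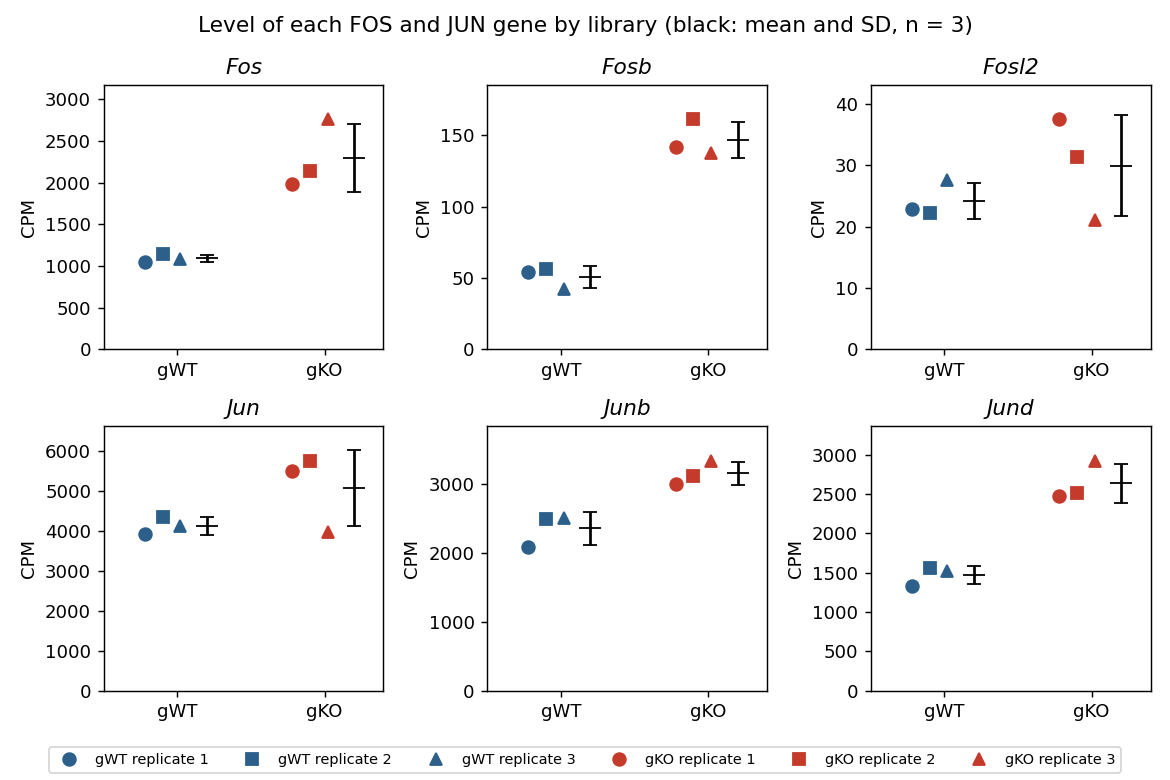
Levels of the 6 detected FOS and JUN genes in CPM (vertical axes from 0, 1 panel per gene); each symbol is a library, and the black bar is the mean and SD of 3 libraries. The gKO libraries lie above all gWT libraries for Fos, Fosb, Junb and Jund. Within its group gKO replicate 3 is lowest for Jun, Fosl2 and, by a small margin, Fosb.

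Among the FOS genes, Fos (chromosome 12, 85473890 to 85477273, plus strand, GRCm38) encodes the subunit that gives the family its name. It had 1988, 2138 and 2759 CPM in gKO replicates 1, 2 and 3, and 1050, 1139 and 1086 CPM in the gWT replicates. Every gKO library lay above every gWT library, and the lowest gKO value was 1.74 times the highest gWT value. Fos was 2.10-fold higher in gKO (95% confidence interval 1.65 to 2.67; log2 fold change 1.07, SE 0.15, edgeR adjusted p = 0.0294). Spread was unequal, with an SD of 409 CPM in gKO and 45.0 CPM in gWT, gKO replicate 3 being the highest. Without that library the log2 fold change was 0.91 (SE 0.06, edgeR adjusted p = 2.23e-07), and without any other single library it was 1.04 to 1.16 with an edgeR adjusted p of 0.0814 to 0.296.

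Fosb (chromosome 7, 19302696 to 19310051, minus strand) encodes full-length FOSB and, by splicing, the truncated and long-lived delta-FOSB, which gene-level counts do not separate. Its level was 142, 161 and 138 CPM in gKO and 54.4, 56.1 and 42.2 CPM in gWT. The gap between the groups was the widest of the members, the lowest gKO library standing at 2.45 times the highest gWT library. Fosb was 2.88-fold higher in gKO (95% confidence interval 2.25 to 3.69; log2 fold change 1.53, SE 0.16, edgeR adjusted p = 0.0104). It ranked 9th by p among all genes tested. Without gKO replicate 3 its log2 fold change was 1.56 (edgeR adjusted p = 1.86e-06), and without any other single library 1.41 to 1.60 (edgeR adjusted p 0.0647 to 0.171).

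Fosl2 (chromosome 5, 32135801 to 32157842, plus strand) encodes FRA2, a FOS protein without the transactivation domain of FOS that is made later and more steadily after a stimulus. Its gKO libraries had 37.4, 31.3 and 21.1 CPM, and its gWT libraries 22.8, 22.2 and 27.5 CPM. The groups overlapped, since gKO replicate 3 held the lowest of the 6 values. The log2 fold change of 0.31 had a 95% confidence interval of -0.23 to 0.84 and an edgeR adjusted p of 0.709, an interval from 0.854-fold to 1.80-fold. Without gKO replicate 3 it was 0.50 (95% confidence interval 0.15 to 0.85, edgeR adjusted p = 0.0789). Fosl1 (chromosome 19, 5447547 to 5455946, plus strand), which encodes the related FRA1, had 0 counts in all 6 libraries. A count of 0 allows a level of up to 0.171 to 0.212 CPM in these libraries, counting 3 reads as the upper limit and covering counting error only, so no change was detectable at this depth.

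Among the JUN genes, Jund (chromosome 8, 70698949 to 70700616, plus strand) encodes the subunit that most cells express steadily and that is not a classical early-response gene. It had 2475, 2514 and 2923 CPM in gKO and 1335, 1556 and 1518 CPM in gWT. The groups did not overlap, with a ratio of 1.59 between the lowest gKO and the highest gWT library. Jund was 1.79-fold higher in gKO (95% confidence interval 1.46 to 2.21; log2 fold change 0.84, SE 0.13, edgeR adjusted p = 0.0360). Without gKO replicate 3 the log2 fold change was 0.75 (edgeR adjusted p = 4.66e-06), and without any other single library 0.78 to 0.89 (edgeR adjusted p 0.101 to 0.340).

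Junb (chromosome 8, 84974484 to 84978718, minus strand), an early-response gene whose protein activates transcription less strongly than JUN at many sites, had 3003, 3114 and 3334 CPM in gKO and 2081, 2490 and 2499 CPM in gWT. The groups did not overlap, but the lowest gKO library was only 1.20 times the highest gWT library. The log2 fold change of 0.42 (SE 0.13, 95% confidence interval 0.13 to 0.71) had an edgeR adjusted p of 0.270 and was not called. Without gKO replicate 3 it was 0.37 (SE 0.07, edgeR adjusted p = 0.00544).

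Jun (chromosome 4, 95049034 to 95052222, minus strand) encodes the strongest activator of the JUN proteins, which JNK kinases activate. It was the member with the most counts, between the 8th and 23rd most abundant gene of each library by CPM. It had 5501, 5766 and 3985 CPM in gKO and 3916, 4364 and 4132 CPM in gWT. gKO replicates 1 and 2 lay above all gWT libraries, whereas gKO replicate 3 lay among them. The log2 fold change of 0.30 (SE 0.16, 95% confidence interval -0.07 to 0.66) had an edgeR adjusted p of 0.558. Without gKO replicate 3 it was 0.44 (SE 0.05, edgeR adjusted p = 0.000200), so in edgeR the call of Jun depended on this library. With all libraries kept, limma-voom with quality weights called Jun (log2 fold change 0.40, adjusted p = 0.0113) and Junb (0.37, adjusted p = 0.0301).

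The strand setting of the counting is not given in the sources used here. Jun overlaps the antisense gene Junos, Jund the antisense gene Gm11175 and Junb the end of Prdx2 on the opposite strand. Fosl1 overlaps Ccdc85b, also on the opposite strand. Reads in the overlapping stretches of these pairs cannot be told apart without strand.

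**Figure D2:**
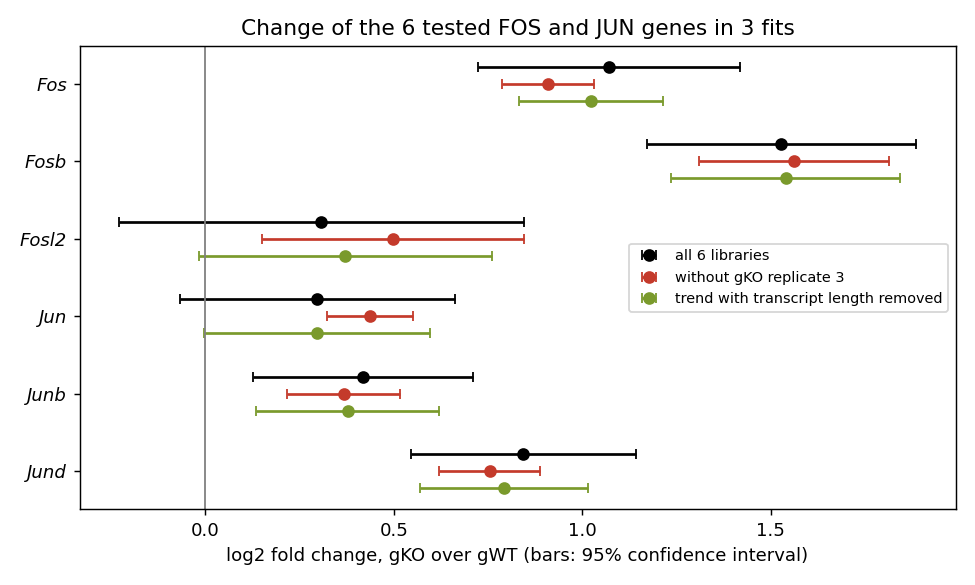
Log2 fold change of gKO over gWT (horizontal axis) with its 95% confidence interval for the 6 tested members, in the edgeR fits with all 6 libraries (black), without gKO replicate 3 (red) and with each library's trend with transcript length removed (green). All points lie above 0; the black intervals of Fosl2 and Jun cross 0, and the red ones do not.

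The members split by transcript length in how gKO replicate 3 differed from the other 2 gKO libraries. Its CPM was 1.17 times their mean for Jund (longest transcript 1668 bases), 1.09 times for Junb (1809 bases) and 1.34 times for Fos (2108 bases). It was 0.707 times their mean for Jun (3189 bases), 0.908 times for Fosb (3782 bases) and 0.613 times for Fosl2 (6537 bases). The 3 members under 3 kb thus lay above the mean of the other 2 gKO libraries, and the 3 members over 3 kb below it. For Junb and Fosb the difference was small. The ratios did not follow length in order, since Fos had a higher ratio than the shorter Jund and Junb. With each library's trend with transcript length removed, the same 3 members were called and no other: Fosb (log2 fold change 1.54, edgeR adjusted p = 0.000564), Fos (1.02, edgeR adjusted p = 0.000462) and Jund (0.79, adjusted p = 0.00417). In that fit Jun had a log2 fold change of 0.30 (edgeR adjusted p = 0.332), Junb 0.38 (0.135) and Fosl2 0.37 (0.348).

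**Figure D3:**
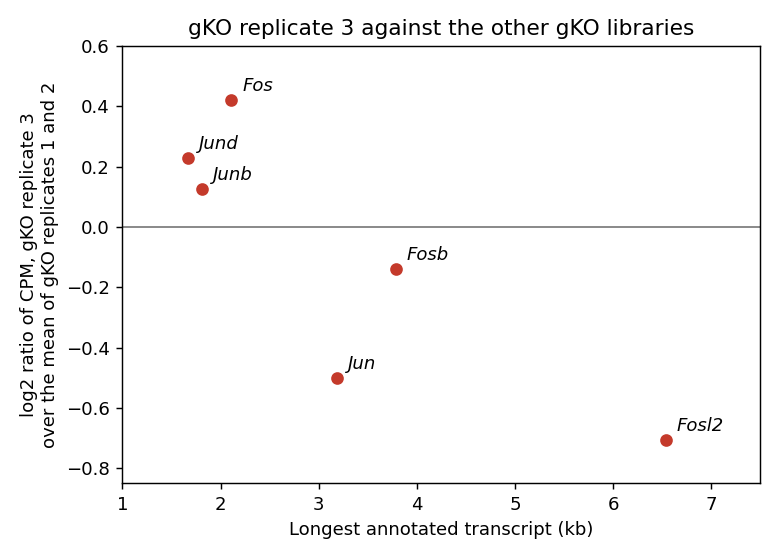
Log2 ratio of the CPM of gKO replicate 3 to the mean of gKO replicates 1 and 2 (vertical axis) against the length of the longest annotated transcript in kb (horizontal axis), 1 point per tested member. Fos, Jund and Junb lie above 0, and Jun, Fosb and Fosl2 below it.

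Divided by transcript length, which allows levels to be compared between genes, the members fell into 2 tiers. In gWT, Junb stood at 1303 ± 132 CPM per kb, Jun at 1297 ± 70.3, Jund at 881 ± 70.9 and Fos at 518 ± 21.3, followed by Fosb at 13.5 ± 2.01 and Fosl2 at 3.70 ± 0.44 (SD, n = 3). Junb and Jun did not differ beyond their spread. In gKO the levels were 1741 ± 93.3 CPM per kb for Junb, 1594 ± 301 for Jun, 1581 ± 149 for Jund, 1089 ± 194 for Fos, 38.8 ± 3.32 for Fosb and 4.58 ± 1.27 for Fosl2 (SD, n = 3). There the 3 JUN genes overlapped, and Fos, below Jun in all other libraries, stood above it in gKO replicate 3: Jun over Fos per length was 1.83, 1.78 and 0.955 in gKO and 2.47, 2.53 and 2.51 in gWT. The place of Junb depended on its length: over all annotated exons (2301 bases in place of 1809) it stood at 1369 CPM per kb in gKO and 1024 in gWT, below Jun in both groups.

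Summed per length, the FOS genes made 986, 1061 and 1348 CPM per kb in gKO and 516, 559 and 531 in gWT, and the JUN genes 4869, 5036 and 4845 CPM per kb in gKO and 3178, 3678 and 3587 in gWT. Both sums were higher in every gKO library than in every gWT library. JUN transcripts exceeded FOS transcripts 4.94-, 4.75- and 3.59-fold in the gKO libraries and 6.16-, 6.58- and 6.76-fold in the gWT libraries, so the ratio of JUN to FOS was lower in all gKO libraries. Fos alone held 95.5% to 97.1% of the FOS sum in all 6 libraries. Jund held 25.2% to 25.4% of the JUN sum in gWT, and 30.5%, 29.9% and 36.2% in gKO replicates 1, 2 and 3. The share of Jun was 36.1% to 38.6% in gWT and 35.4%, 35.9% and 25.8% in gKO, the last value being that of replicate 3. These shares are a description without a test, and RNA levels do not give the amounts of protein or dimer.

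**Figure D4:**
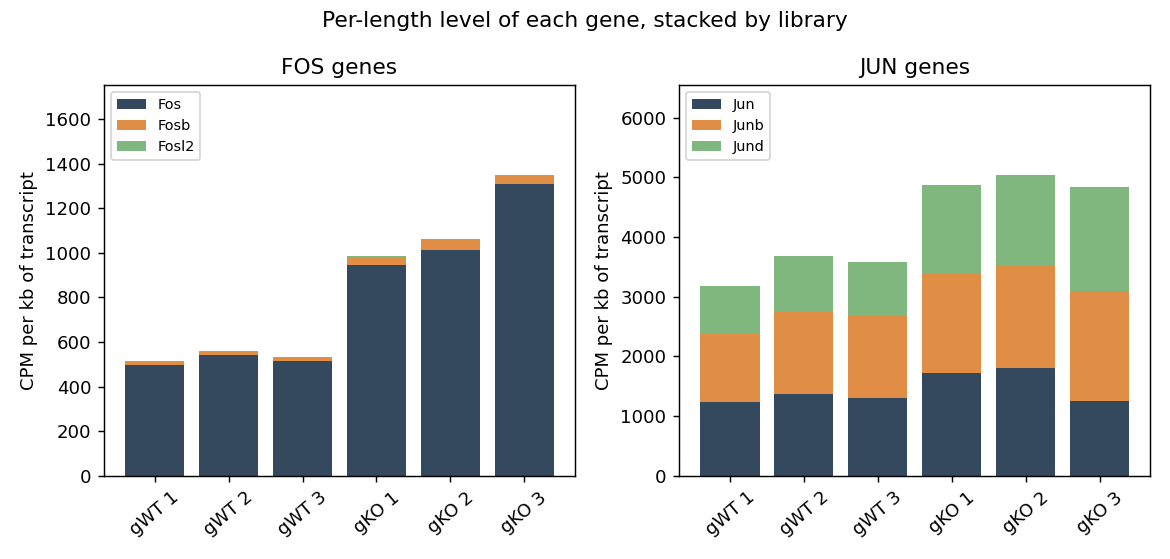
Level in CPM per kb of transcript (vertical axes from 0), stacked by gene, for the FOS genes (left) and the JUN genes (right) in each library; Fosl1 is at 0 and not drawn. Fos fills almost the whole FOS bar, the 3 JUN genes share theirs, and all gKO bars stand above all gWT bars.

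In the authors' deposited table of genes higher in the knockout, Fosb and Fos are the only members among 75 genes, with log2 fold changes of 1.53 (adjusted p = 3.02e-14) and 1.07 (adjusted p = 5.63e-08). The smallest log2 fold change in the authors' deposited table is 1.03, above the value of 0.84 found here for Jund, and no member is in the authors' deposited table of 201 genes lower in the knockout.

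Of 17 tested bZIP partners, proteins of related families that can dimerize with or compete with FOS and JUN, 2 rose and 0 fell, with a median log2 fold change of 0.10. An unadjusted edgeR p under 0.05 was found for 4 of the 17. Jdp2, a repressor that pairs with JUN proteins, rose with a log2 fold change of 1.42 (SE 0.20, edgeR adjusted p = 0.0246), and Atf3, a stress-induced partner of JUN, with 1.42 (SE 0.12, edgeR adjusted p = 0.00431). The other 15 partners had log2 fold changes from -1.70 (Batf2) to 0.48 (Mafk), the ends of the range, and edgeR called none of them with all 6 libraries. Mafk, a small MAF protein gene, was called as well without gKO replicate 3 (3 of 17).

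Over all genes tested, 10.9% had an unadjusted edgeR p under 0.05 (1460 of 13403), a share to set beside the counts of such genes in each list. Without gKO replicate 3 that share was 23.2%, and 551 genes were called higher and 528 lower of 13814, against 53 and 31 of 13403 with it.

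EdgeR called 0 of 29 tested MAP kinase genes, which carry the signals to FOS and JUN (median 0.01; 3 at an unadjusted p under 0.05). DESeq2 and limma-voom called 0 too, and limma-voom with quality weights called 1, the JNK-pathway kinase Map3k1 (edgeR log2 fold change 0.46, adjusted p = 0.211). Map3k8, which activates the ERK pathway, had 0.68 (edgeR adjusted p = 0.384). Leaving out gKO replicate 3, edgeR called 2 of 30 tested, Map3k1 higher and Rps6ka1, a kinase downstream of ERK, lower. Of 18 factors that bind or coactivate the members' promoters, such as SRF, its ETS partners and CREB, edgeR, DESeq2 and limma-voom called 0 (median -0.15; 2 at an unadjusted edgeR p under 0.05). With quality weights limma-voom called Mef2a higher, at an edgeR log2 fold change of 0.39 (adjusted p = 0.280). EdgeR called 2 of the 18 higher without gKO replicate 3, Mef2a and the coactivator gene Ep300. The ETS factor Elk1 had a log2 fold change of -1.14 (SE 0.43, edgeR adjusted p = 0.390).

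Among 16 genes that control the turnover of FOS and JUN transcripts or proteins, edgeR called 0 (median 0.23; 6 at an unadjusted p under 0.05). DESeq2 and limma-voom each called 2 higher, Zfp36 and Zfp36l1, which encode proteins that promote decay of AU-rich transcripts such as Fos, and limma-voom with quality weights called Zfp36l2 too. In edgeR Zfp36 had a log2 fold change of 0.70 (SE 0.13, adjusted p = 0.0647) and Zfp36l1 0.69 (SE 0.12, adjusted p = 0.0516). In edgeR without gKO replicate 3, 5 of the 16 were called higher, those 3 with Trib1 and Hnrnpd.

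Of 25 tested genes reported as AP-1 targets, 4 rose and 0 fell, with a median log2 fold change of 0.63. They were the cytokine gene Tnf (2.08, SE 0.20, edgeR adjusted p = 0.00975), the chemokine genes Ccl3 (1.79, SE 0.28, adjusted p = 0.0385) and Cxcl2 (2.23, SE 0.37, adjusted p = 0.0437) and the protease gene Mmp9 (0.97, SE 0.16, adjusted p = 0.0427), which is also on the neutrophil marker list. DESeq2 called 9 of this list higher, limma-voom 3, limma-voom with quality weights 10, and edgeR without gKO replicate 3 called 10. With all 6 libraries, 14 of the 25 had an unadjusted edgeR p under 0.05.

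Of 24 other immediate-early genes tested, 9 rose, 0 fell and 15 did not pass the test, with a median log2 fold change of 0.89 (16 rose without gKO replicate 3). An unadjusted edgeR p under 0.05 was found for 17 of the 24. Of the 24, 3 had a negative log2 fold change, Arc (-1.50, edgeR adjusted p = 0.765), Ctgf (-0.81, edgeR adjusted p = 0.287) and Nr4a2 (-0.78, edgeR adjusted p = 0.843). The orphan receptor gene Nr4a1 (1.66, edgeR adjusted p = 0.00246), the phosphatase gene Dusp1 (1.24, adjusted p = 0.00946), the antiproliferative gene Btg2 (1.03, adjusted p = 0.0180) and the zinc finger factor Egr1 (1.12, adjusted p = 0.0186) had the smallest p. Heat shock genes, another group that responds to cell handling, had a median of -0.02, with 0 of 10 called by edgeR, DESeq2 or either form of limma-voom and 1 at an unadjusted edgeR p under 0.05, the chaperone gene Hsph1 (-0.52, edgeR adjusted p = 0.422). Dnajb1, an HSP40 co-chaperone gene, had 0.22 (edgeR adjusted p = 0.675). The small heat shock protein gene Hspb1 was called lower by edgeR without gKO replicate 3 (1 of 10, with 3 at an unadjusted p under 0.05). The part of cell handling in the rise of Fos, Fosb and Jund was not tested.

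**Figure D5:**
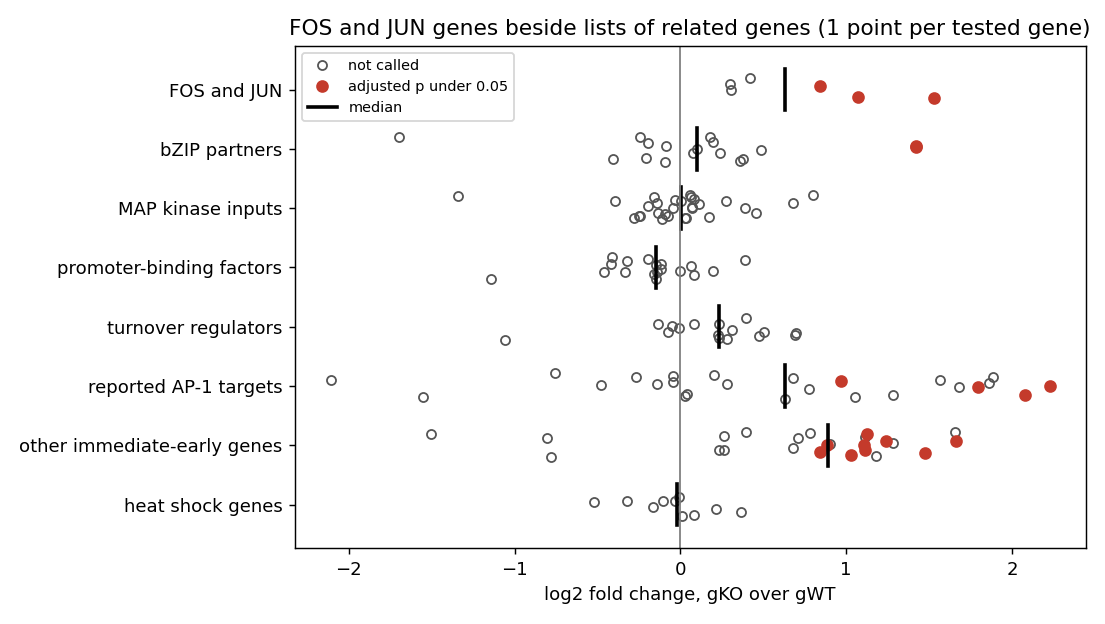
Log2 fold change of gKO over gWT (horizontal axis) for each tested FOS and JUN gene and each tested gene of 7 related lists (rows); filled red points have an edgeR adjusted p under 0.05, and the black bar is the median of the row. Called genes are all on the higher side and lie in 4 of the 8 rows, and the MAP kinase row centres on 0; the points of Atf3 and Jdp2 coincide at 1.42.

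Markers of other cells differed between the groups as well, and in bulk RNA fewer cells of a type and less RNA per cell cannot be told apart. The 12 neutrophil markers in the table, all of them detected, summed to 918 to 1342 CPM in gKO and 585 to 694 CPM in gWT, and 2 of 12 tested rose (Ltf and Mmp9; 7 by DESeq2, and 7 by edgeR without gKO replicate 3). The 9 monocyte markers summed to 435 to 461 CPM in gKO and 376 to 405 CPM in gWT, with 2 of 9 higher (Chil3 and Hp). The marker F13a1 is also on the border macrophage list and enters both sums. The 13 endothelial and mural markers summed to 369 to 497 CPM in gKO and 785 to 1013 CPM in gWT, with 2 of 13 tested lower (Cldn5 and Acta2; 5 by DESeq2 and by limma-voom with quality weights, and 9 by edgeR without gKO replicate 3). The 7 meningeal fibroblast markers summed to 213 to 218 CPM in gKO and 381 to 558 CPM in gWT, with 3 lower (Col1a1, Col1a2 and Col3a1; 4 by DESeq2 and by edgeR without gKO replicate 3). An unadjusted edgeR p under 0.05 was found for 10 of 12 neutrophil and 4 of 9 monocyte markers. It was also found for 10 of 13 endothelial and mural and 6 of 7 meningeal fibroblast markers. The part of these cells in the levels of the FOS and JUN genes was not tested.

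For 5 further marker lists edgeR called 0 genes with all 6 libraries. They were microglia (14 tested, 2 at an unadjusted p under 0.05, 2 lower by limma-voom with quality weights), border macrophages (9 tested, 1 at an unadjusted p under 0.05; 1616 to 1704 CPM in gKO and 1486 to 1550 CPM in gWT), and astrocytes (9 tested, 4 at an unadjusted p under 0.05, 1 lower by DESeq2 and by both forms of limma-voom; 260 to 310 CPM in gKO and 363 to 407 CPM in gWT). They were also neurons (7 tested, 0 at an unadjusted p under 0.05; 11.5 to 17.9 CPM in gKO and 11.3 to 18.6 CPM in gWT) and T, NK and B cells (4 of 11 tested, 0 at an unadjusted p under 0.05, Cd3g at 0 counts in every library; 44.0 to 66.5 CPM in gKO and 47.1 to 54.8 CPM in gWT). With gKO replicate 3 left out, edgeR called 4 of 14 microglial markers (Fcrls, Olfml3 and P2ry13 lower, Siglech higher; 7 at an unadjusted p under 0.05), 2 of 9 border macrophage markers (Mrc1 higher, Cd209f lower) and 1 of 9 astrocyte markers (Gja1 lower). It called 0 of 8 neuronal markers (0 at an unadjusted p under 0.05) and 0 of 5 lymphocyte markers (1 at an unadjusted p under 0.05).

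Among the members, Fos, Fosb, Junb and Jund ran together over the 6 libraries (Pearson r of log2 CPM from 0.858 to 0.990), and Jun ran closest to Fosl2 (r = 0.846) and less close to those 4 (0.432 to 0.669). The genes whose log2 CPM ran most like that of Fos over the 6 libraries, among 12135 compared, were Tsc22d3, a glucocorticoid-induced leucine zipper gene (r = 0.999), Zfp36 (r = 0.999), the small GTPase gene Gem (r = 0.996), Pafah1b2 (r = 0.996) and Rin2 (r = 0.996). Those most like Jun were Gzf1 (r = 0.995), Dlst (r = 0.994), an enzyme of the citric acid cycle, Ppp2r5c (r = 0.989), a phosphatase subunit, Dock11 (r = 0.988) and Socs3 (r = 0.988), an inhibitor of cytokine signalling. All 6 points share the group difference and the deviation of gKO replicate 3, so these coefficients are a description with no p. The genes most like Fos were higher in every gKO library than in every gWT library, as Fos was. Those most like Jun overlapped between the groups, as Jun did. Both follow from the choice by r over the same libraries and are no separate result.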

How the data were processed

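RNA of primary mouse microglia was measured in 3 gKO and 3 gWT libraries, grouped by the sample titles. The deposited table holds expected counts per gene symbol, which were estimated and not normalized, judging from the values. STAR 2.7.9a, RSEM, DESeq2, GRCm38 and mm10 are named, with no role or order, per the submitters' processing notes. The sources used here give neither the annotation nor the strand setting. The authors' deposited lists give, per the file headers, a mean normalized signal, a log2 fold change, its standard error and a test statistic (scores), and p-values before and after adjustment.

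After rounding, the expected counts went into edgeR 4.0.16 (R 4.3.3; filterByExpr, TMM, robust quasi-likelihood test on genotype alone). The SE is the absolute log2 fold change over the square root of F. Levels are TMM-scaled CPM, also per kb of the longest GENCODE M21 transcript. Sequences came from RefSeq tables of GRCm38.p6, which held all members' promoters except that of Fosl1. The fit was checked on counts drawn with known changes. The drawn counts had no outlying library and no trend with transcript length, so the check does not cover these features. Replicates differed by more than sampling noise (chi-square per degree of freedom 6.49 to 101), so none was merged.

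The members, the gene lists and the naming rule (the members, up to 4 called genes of a list or else the 2 with the smallest p, and the 5 genes most like Fos and Jun by Pearson r of log2 CPM with a prior count of 2, leaving out predicted genes) were chosen with earlier results of these data known. Alternatives were other scalings and filters, DESeq2 1.42.0, limma-voom (limma 3.58.1), a replicate block, a length correction, and each library left out. The result of 1 marker list is not reported here.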

Additional observations from a re-analysis of the deposited data

How the results depend on the processing

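The log2 fold changes of the 6 tested members kept their sign in all 15 alternatives. Fosb, Fos and Jund were called in each of the RLE, upper-quartile, filter, DESeq2, limma-voom and length-corrected fits. Limma-voom with quality weights called 5 members, Jun and Junb being the additional ones. Members called were 1 (Fosb) with the replicate number as a replicate block, and 0 to 5 with single libraries left out. The numbers are not taken as pairs, because nothing in the labels says that same-numbered libraries are paired. Deviations of same-numbered libraries from their group means had r = 0.05, -0.05 and 0.02 across genes. With 3 libraries per group these values cannot exclude pairing. Under the block Fos had an edgeR adjusted p of 0.0699 and Jund 0.0973. Over all genes, 53 were higher and 31 lower in edgeR, against 168 and 223 by DESeq2, 261 and 152 by limma-voom with quality weights, 11 and 7 with the replicate block and 128 and 112 with the length trend removed. Without a filter on low counts 47 were lower. Leaving out single libraries gave 0 to 551 higher and 0 to 528 lower genes, the highest without gKO replicate 3. The lymphocyte gene Cd79b, not called, changed sign without that library, from 0.183 to -0.0192 (range -0.0192 to 0.323 with single libraries left out); the cause was not tested. Over all annotated exons the level of Fosb was 23.5 in place of 38.8 CPM per kb in gKO, since the length is greater. Among the members, only Fosl1, at 0 counts, failed the filter on low counts, so depth limits what can be said of it.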

Other observations

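The genomic neighbours of the members, within 200 kb on GRCm38, were looked at after the data had been seen. Of 5 tested genes near Fos, 1 was called, Jdp2, which lies 122 kb away and rose with a log2 fold change of 1.42 (edgeR adjusted p = 0.0246). The other 4, Acyp1, Zc2hc1c, Nek9 and Tmed10, had log2 fold changes of 0.12, 0.12, 0.00 and 0.13. Near Fosb, 0 of 17 tested genes were called by edgeR, DESeq2 or either form of limma-voom, with 1 at an unadjusted edgeR p under 0.05 and a median of -0.32. EdgeR without gKO replicate 3 called 1 of these 17, Snrpd2, lower. Near Jund, edgeR called 0 of 21, with 3 at an unadjusted p under 0.05 and a median of 0.03. DESeq2, limma-voom with quality weights and edgeR without gKO replicate 3 called 1 of them higher, Gdf15, which encodes a stress-induced cytokine and lies 66.5 kb from Jund. Gdf15 had an edgeR log2 fold change of 1.53 (adjusted p = 0.0796). Of the 2 genes tested near Jun, Tek (log2 fold change -0.89) and Mysm1 (0.47), both had an unadjusted edgeR p under 0.05 and 0 were called. EdgeR also called 0 of 21 near Junb (0 at an unadjusted p under 0.05) and 0 of 22 near Fosl1 (2 at that p). Without gKO replicate 3 it called Tek and, near Fosl1, Mus81 lower. Limma-voom with quality weights called Mus81 lower too. No gene near Fosl2 was tested.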
